A study of Mus musculus with 8 samples.

Results

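Nuclear receptors and their coregulators were examined in mSSC-YFP cells, a murine line of spleen stromal cells that carries YFP. In all, 49 genes were listed by symbol, 33 receptors and 16 coregulators, and 39 of them had a row among the 12589 genes of the deposited table. RNA-seq had been performed on 4 samples treated for 48 h with BMS493, an inverse agonist of the retinoic acid (RA) receptors, and on 4 samples given its vehicle DMSO. All were of this line, which is 1 model of the spleen stroma, and were grown in DMEM with fetal bovine serum. The column used here is the authors' mean log2 normalised expression of each gene over all 8 samples, so a level below is a mean over both groups. The contrast of BMS493 with DMSO was not analysed here, and neither the level in a single sample nor its depth was known. No spread between samples could therefore be given, no difference between genes was tested, and in a bulk culture fewer cells with a transcript and less of it per cell cannot be told apart.

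Nuclear receptors are transcription factors that bind DNA through zinc fingers, and many of them are switched by a small lipophilic ligand. The RA receptors (RARs) act as heterodimers with the retinoid X receptors (RXRs), which also pair with the PPARs, the LXRs, the vitamin D receptor and the thyroid hormone receptors. Without an agonist such a dimer can hold a corepressor complex built on an NCoR scaffold with HDAC3 and TBL1-type proteins. An agonist exchanges this complex for coactivators of the p160 family and for the Mediator subunit MED1, whereas an inverse agonist stabilises the corepressor-bound form.

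RARs recognise direct repeats of a short motif, and the Rarb gene itself is a textbook target of RA through such a repeat in its promoter. A direct repeat of GNTCA, in which N is any base, with 6 bases of any kind between the copies was searched on both strands of the RefSeq promoters (GRCm38.p6), each running from 250 bases before to 50 bases after an annotated start. Of the 49 genes 43 had such a promoter, 63 promoters in all. A match was found in 1 of the 63, that of Rarb, and in 0.861% of the 32851 promoters of all genes. It lay on the gene strand, from 52 to 37 bases upstream of the start. The window is shown because Rarb was the one member with this match, and capitals mark the matched bases:

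Rarb, chr14:16575503-16575538, minus strand: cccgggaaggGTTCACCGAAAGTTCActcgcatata

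Copies of GNTCA with 3 and with 2 bases between them matched 0 of the 63 promoters, against 1.12% and 1.26% of all promoters. The E-box CACGTG, the site of the clock activators, matched 3 of the 63 and 7.15% of all. These are matches of letters, and an absent match says only that the letters are not in these windows.

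Taken back to the linear scale, the levels of all genes added up to 989369. Levels ran from -0.58 to 13.29 on the log2 scale, with a median of 4.99. Since a longer transcript yields more reads, members were ordered per length, by subtracting the log2 of the longest annotated transcript in kilobases from the level. A percentile of the level as deposited carries no such correction. This per-kilobase level was available for 12367 genes, with a median of 3.28. An order between members is stated as kept where it was the same with the longest transcript, the coding length, the median transcript, the union of exons and no length at all, which held for 81 of the 106 pairs of members within a group.

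The label of the line was checked against marker genes. Of 10 markers of fibroblastic stroma 9 had a row, with levels from 5.24 to 13.29, the highest being that of Col1a1, a fibrillar collagen chain. Lum had no row. None of 9 markers of B and T lymphocytes had a row. Of 6 myeloid markers Cd14 and Cd68 had one, of 5 endothelial markers Kdr and Pecam1, with levels up to 3.33 and 2.83. The defining markers Ptprc, Cdh5 and Epcam had no row. Of 5 epithelial markers 3 had one, and Cdh1, which encodes E-cadherin, had a level of 8.03.

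The RA receptors were represented by 2 of their genes at moderate levels and by 1 at the floor of the table. Rarg, which encodes RARγ and lies on chromosome 15 from 102234938 to 102257517 of GRCm38 (mm10), had a level of 6.50 and a per-kilobase level of 4.94, at percentile 80.7 of all genes. Rara (RARα, chromosome 11 from 98927818 to 98974942) had a level of 5.91 and a per-kilobase level of 4.15. Rarb (RARβ, chromosome 14 from 16430839 to 16819156) had a level of -0.49, near the lowest value of the table. Its per-kilobase level of -2.13 stood at percentile 0.566. Per kilobase, Rarg was 0.79 above Rara and 7.07 above Rarb on the log2 scale, and the order Rarg, Rara, Rarb was kept with each length setting. The promoter match shown above belongs to the RAR gene with the lowest per-kilobase level. That level is a mean that includes the cultures given BMS493. In the paper's qPCR of this line, BMS493 blocked the induction of Rarb by leukemic cells and by added RA. The level of Rarb in the DMSO samples alone is not known here.

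Among the RXRs, the shared partners, Rxra (chromosome 2 from 27676440 to 27762957) had a level of 5.96 and Rxrb (chromosome 17 from 34031812 to 34038399) one of 5.71. Their per-kilobase levels were 3.66 and 4.32. The order of Rxra, Rxrb and Rara turned between settings: with the coding length Rxrb was 0.41 below Rxra, not 0.66 above it. Rxrg, the third RXR gene, had no row. Summed on the linear scale per kilobase, RARs reached 48.8 and RXRs 32.6, a ratio of 1.49 that ran from 1.32 to 2.63 over the length settings. The PPAR, LXR, vitamin D and thyroid hormone receptor genes with a row (Ppard, Pparg, Nr1h2, Vdr, Thra and Thrb) summed to 67.8. That was 2.08 times the RXRs, with a range of 1.55 to 2.57. Each of these 2 sums exceeded that of the RXRs with every length setting. Each also adds up more genes than the RXR sum does, so it does not show a higher level per gene. These sums were chosen after the values were seen.

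PPARs and LXRs sense fatty acids and oxysterols. Nr1h2, which encodes LXRβ (chromosome 7 from 44549616 to 44553951), had a level of 5.55 and the highest per-kilobase level of the group, 4.55. Ppard had 5.35 and 3.45. Pparg, the regulator of fat cell differentiation, had 3.00 and 1.91, at percentile 25.9. All 3 pairs of this group kept their order. Ppara and Nr1h3, which encodes LXRα, had no row.

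The thyroid hormone receptor genes also lay far apart. Thra (chromosome 11 from 98740638 to 98769006) had a level of 5.94, and Thrb (chromosome 14 from 17660261 to 18038090) one of -0.21. Per kilobase these were 4.64 and -2.84, a difference of 7.49, and Thrb was the lowest of the 39 genes on that scale. Vdr, the vitamin D receptor gene, lay between them at 4.30 and 2.17 per kilobase. The order Thra, Vdr, Thrb was kept with each length setting.

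Of 4 steroid receptor genes only Nr3c1, which encodes the glucocorticoid receptor, had a row. Its level was 6.81, and per kilobase it was 4.12, at percentile 67.0. The genes of the mineralocorticoid, oestrogen and progesterone receptors, Nr3c2, Esr1 and Pgr, had no row.

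With the longest transcript, each receptor of the circadian clock was below the median of all genes per kilobase. Nr1d1 and Nr1d2 encode the repressors REV-ERBα and REV-ERBβ, with levels of 4.41 and 4.92 and per-kilobase levels of 2.97 and 2.70. Their order turned between settings, and with the median transcript Nr1d2 (4.65) was above the median of all genes. Rora, the activator that competes for the same sites, had a level of 2.23. Its longest transcript measures 10878 bases, so that per kilobase it stood at -1.22, and both Nr1d1 and Nr1d2 stayed above it with every setting. Nr1d1 shares 263 exonic bases with Thra on the other strand.

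The other orphan receptors ran from -0.32 to 5.06 per kilobase. Nr4a1, an immediate early gene (chromosome 15 from 101254269 to 101274795), had a level of 6.42 and a per-kilobase level of 5.06, at percentile 82.3. Nr2f2, which encodes COUP-TFII, a receptor of mesenchymal cells (chromosome 7 from 70351944 to 70366735), had 6.87 and 4.80. The order of these leading genes turned between settings, and with the coding length Nr2f2 was above Nr4a1. Per kilobase their relatives Nr4a2 and Nr2f1 (COUP-TFI) stood at 0.94 and 0.70, and Nr4a3 had no row. Nr4a1 was above Nr4a2 and Nr2f2 above Nr2f1 with each length setting. Esrra, which encodes ERRα, and Nr2f6 had per-kilobase levels of 3.66 and 3.62, and the testicular receptors Nr2c1 and Nr2c2 had 2.97 and 2.70. Nr6a1, the germ cell nuclear factor, had a level of 2.34 and stood at -0.32 per kilobase. Nr5a2 and Nr0b1 had no row.

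**Figure D1:**
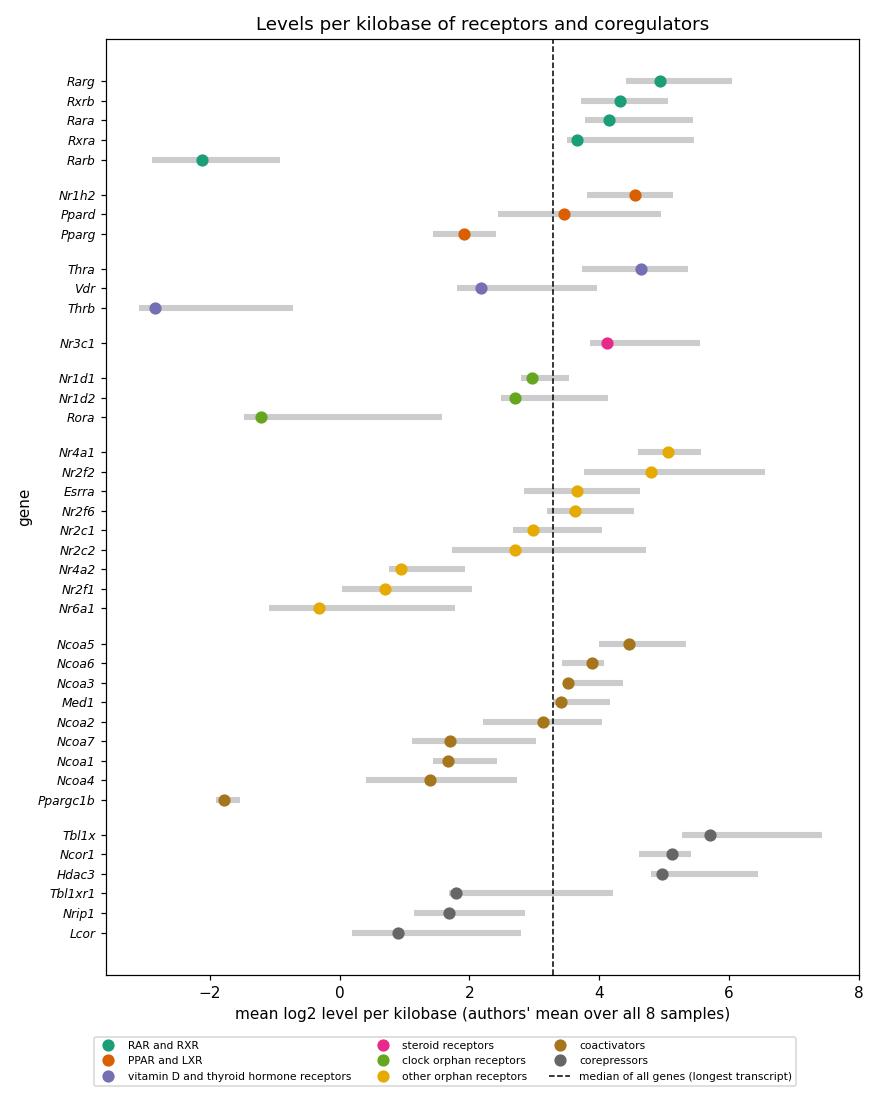
Per-kilobase level of each of the 39 genes with a row (x axis, log2, authors' mean over all samples), by group; dots use the longest transcript, grey bars join the values with the coding length and the union of exons, and the dashed line is the median of all genes with the longest transcript, 3.28. Rarb and Thrb sit at -2.13 and -2.84, apart from the other RAR and thyroid hormone receptor genes.

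Coactivators ran from -1.79 to 4.47 per kilobase. Of the p160 family, Ncoa3 had a level of 6.44 and a per-kilobase level of 3.52, Ncoa2 had 6.17 and 3.14, and Ncoa1 had 4.54 and 1.67. The order Ncoa3, Ncoa2, Ncoa1 was kept with each length setting. Ncoa5 had the highest per-kilobase level of the coactivators, 4.47, followed by Ncoa6 with 3.89. Med1, the Mediator subunit that contacts receptors, had 3.41, and Ncoa3 was above it with each setting. With no length Ncoa5 came below Ncoa6, Ncoa3, Med1 and Ncoa2, and with the median transcript it came below Ncoa3. Ncoa7 (1.70) and Ncoa4 (1.39), which is also the ferritinophagy receptor, were lower. Ppargc1b, a coactivator of mitochondrial genes, had a level of 0.08, and Ppargc1a had no row. Per kilobase it was the lowest of the coactivators, at -1.79.

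With the longest transcript, the corepressor genes Tbl1x and Ncor1 had the highest per-kilobase levels of the members, 5.71 and 5.12, with Nr4a1 next at 5.06. With the coding length Tbl1x (7.44) stayed first and Nr2f2 (6.56) came second. Ncor1 (5.42) then came below further genes such as Hdac3 (6.46) and Rarg (6.05). With the median transcript Ncor1 (8.63) was first and Rarg (7.74) second. Tbl1x (5.95) then came below further genes such as Ncoa3 (6.72) and Thra (6.55). Ncor1, the NCoR scaffold (chromosome 11 from 62316426 to 62458541), had a level of 8.30, at percentile 96.2 of all genes as deposited and 83.1 per kilobase. Tbl1x, an exchange factor of the complex (chromosome X from 77511013 to 77662983), had 8.10 and a per-kilobase level of 5.71, at percentile 89.2. Hdac3, its deacetylase, had 6.82 and 4.97. The order among Tbl1x, Ncor1 and Hdac3 turned between settings. Tbl1xr1, the paralog of Tbl1x, was lower at 4.84 and 1.79, and Tbl1x was above it with each setting. Nrip1 (RIP140) and Lcor, which bind receptors in the presence of an agonist, had levels of 4.66 and 3.17. Of further coregulators fixed as a list, all 33 had a row, the highest per kilobase being Ddx5, an RNA helicase, with 7.84. Gps2, a further subunit of the complex, had 4.43 per kilobase. Crebbp and Ep300, the acetyltransferases, had 2.50 and 3.68.

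The median per-kilobase level minus that of all genes was 0.87 for RARs and RXRs (5 genes), 0.84 for the single steroid receptor, 0.17 for PPARs and LXRs (3), 0.10 for corepressors (6), -0.14 for coactivators (9), -0.31 for the other orphan receptors (9), -0.58 for the clock receptors (3) and -1.11 for the vitamin D and thyroid hormone receptors (3). The value for RARs and RXRs was -0.29 with a mean in place of the median, the mean being pulled down by Rarb. Only the values of the steroid receptor and of the clock receptors as a group kept their side of the median of all genes under every alternative tried. In total 19 of the 39 genes were above the median of all genes, 12 of 24 receptors and 7 of 15 coregulators. With the longest transcript 28 of 33 further coregulators were above it, and this count is not given for the other lengths. It depends on the length. With the coding length Ep300 (4.08), Med12 (3.74) and Nsd1 (4.09), for instance, were below the median of all genes, then 4.55. The highest percentile of a member per kilobase was that of Tbl1x, 89.2.

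**Figure D2:**
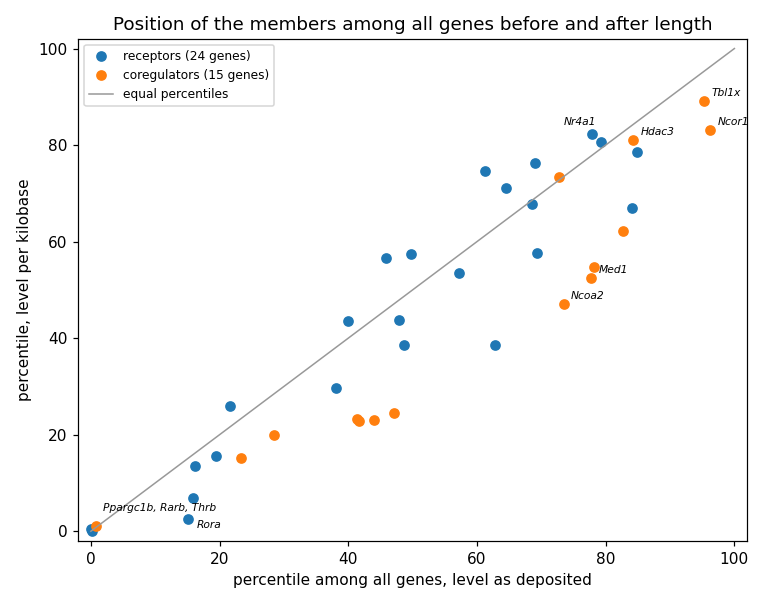
Percentile of each member among all genes of the table, by the level as deposited (x axis) and by the per-kilobase level (y axis), with receptors in blue and coregulators in orange. Several long coregulator transcripts fall below the line of equal percentiles, such as Ncoa2 from 73.4 to 47.2, and Rarb, Thrb and Ppargc1b lie at the lower left corner on both scales.

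The 10 genes with no row were Rxrg, Ppara, Nr1h3, Nr3c2, Esr1, Pgr, Nr4a3, Nr5a2, Nr0b1 and Ppargc1a, and none had an older symbol in the table. The methods of the study do not state by which rule genes were kept in the deposited table. A missing row is therefore not a measured absence. The promoters of listed genes with a row held a median of 27 CpG dinucleotides (33 genes, the richest promoter of each). Those with no row held 12.5 (10 genes). The corresponding medians were 23 over all genes with a row and 4 over all coding genes without, so the direction was that of the table as a whole. Of 14 genes for the supply and binding of retinoids 8 had a row. Aldh1a1, which makes RA, led them with 8.32 per kilobase, and Aldh1a3 was the lowest with -2.06.

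Several members share exons with a gene on the other strand, and the sources used here do not state whether reads were assigned by strand, although the library kit was a stranded one. For Rarb, 38.4% of exonic bases also lie in an exon of an opposite gene. Its coding partner was Top2b, a topoisomerase gene with a level of 8.09. For Nr2f6 the share was 54.4% (with Ocel1, level 3.23) and for Nr2c2 31.2% (coding partner Mrps25, level 5.23). It was 8.55% for Nr1d1 and 5.70% for Thra, which overlap each other, and 7.46% for Nr2f2. All other members were under 5%. Whether reads of these overlaps were lost or moved between genes was not tested. In 40 of the 49 members no stretch of 100 bases of the longest transcript recurred in transcripts of another gene. Nr2f2 was among these 40. The shares of overlap, in contrast, were counted over all exons of a gene.

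**Figure D3:**
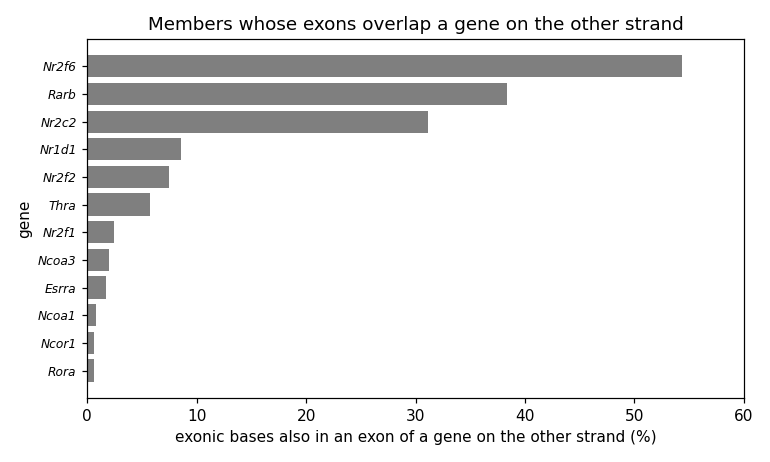
Share of exonic bases (x axis, percent) that also lie in an exon of a gene on the other strand, for the members with a row and any such overlap, from GENCODE M21. Nr2f6, Rarb and Nr2c2 have shares of 54.4%, 38.4% and 31.2%, and Nr1d1 follows with 8.55%.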

How the data were processed

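RNA-seq was performed on 4 DMSO-treated and 4 BMS493-treated samples of 1 stromal line. According to the methods of the study, libraries came from a stranded mRNA kit. Reads were checked with FastQC and aligned to mm10 with STAR (2.3.0e per the submitters' processing notes). Rsubread counted those that mapped uniquely to Ensembl genes, and counts were normalised by TMM. The strand setting of the counting is not given in the sources used here. The authors deposited 1 table, with a mean log2 normalised expression per gene over all samples, written with decimal commas. Its other 4 value columns hold the authors' own comparison of the groups (log2 fold change, t statistic, p-value and adjusted p-value) and were not used. The table holds no column of a single sample, so the planned limma test could not be run. The paper gives the average number of clusters per sample, but the depth of each single sample is unknown.

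Levels per kilobase were computed as the mean log2 level minus the log2 of transcript length (GENCODE M21, GRCm38), with Python 3.11.15, numpy 2.4.6 and pandas 2.3.3. Symbols matched for 11765 genes and through an older symbol for 602 more, which left 98.2% with a length. A further 2 rows with the same date-like symbol were left out. Shared sequence was counted as windows of 100 bases of the longest transcript that recur in transcripts of another gene on either strand. The subtraction of length was run on simulated data, which checks the code but not the choice of length. Members and lists were chosen with earlier results of these data known. All members with a row could be named, with the highest and the lowest of each group given in full, and of the other fixed lists the highest gene. Further genes of these lists, and the partners of overlaps, were named after their values were seen. The union of exons and the ratios were added after the data were seen. Protein features, though planned, were not analysed here, and some genes of the other lists are not reported here.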

Additional observations from a re-analysis of the deposited data

How the results depend on the processing

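No paired analysis was possible because values of single samples were not at hand. Leave-one-out fits, a replicate block, other pseudocounts and the BMS493 contrast were therefore not run. The count of members with a row was 39 with older symbols accepted and 36 at a level of at least 1. Members above the median of all genes numbered 19, and 16 to 24 over the alternatives. Group medians minus the median of all genes moved as follows, in the order RARs and RXRs, PPARs and LXRs, vitamin D and thyroid hormone receptors, steroid receptor, clock receptors, other orphan receptors, coactivators and corepressors. With the coding length they were 0.89, 0.40, -0.59, 1.01, -1.02, -0.01, -0.51 and 0.27. With the median transcript length they were 0.54, 0.39, 0.66, 1.45, -0.84, 0.11, 0.17 and 1.26. With no length they were 0.93, 0.36, -0.68, 1.82, -0.57, -0.11, 1.15 and 0.84. With the mean of each group they were -0.29, 0.02, -1.96, 0.84, -1.80, -0.60, -0.91 and 0.08. At a level of at least 1 they were 0.80, 0.01, -0.03, 0.68, -0.74, -0.47, -0.16 and -0.06. With the union of exons, added later, they were 0.87, -0.41, -1.05, 1.01, -0.37, -0.18, -0.65 and 0.30. As group values, the steroid receptor stayed above and the clock receptors below the median of all genes in all of these. Each other group changed sides in at least 1. The cause was not tested. The error of levels near the floor, such as that of Rarb, is unknown.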

Other observations

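Outside the receptors, Crabp1, which encodes a cellular RA-binding protein, had a level of 6.78. With the longest transcript it stood at 7.10 per kilobase, above each of the 39 members with a row. Ddx5, of the further coregulators, was higher with 7.84. With the median transcript Ncor1 (8.63) and Rarg (7.74) were above Crabp1 (7.10). Crabp2, the paralog of Crabp1, had 2.02 per kilobase with the longest transcript. Fabp5, which can carry RA to PPARδ, had 5.10. The RA-degrading enzymes Cyp26a1, Cyp26b1 and Cyp26c1 had no row. The paper nevertheless names Cyp26b1 among the transcripts lowered by BMS493 in this line. A missing row is therefore not read here as absent expression.

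The epithelial adhesion gene Cdh1 had a per-kilobase level of 5.88, at percentile 90.7 of all genes, in a line labelled as spleen stroma. Epcam and Krt5 had no row, and Krt8 and Krt18 had 0.58 and -0.21 per kilobase.

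Housekeeping genes were spread widely per kilobase. Actb had 11.21, Hprt 6.27 and Polr2a 6.18, whereas Gapdh had 1.55 and Ppia 1.48. Tbp, whose longest transcript measures 12794 bases, was the lowest of them with 1.09, and also with the union of exons (1.00). With the coding length Tbp (4.84) was above Gapdh (3.17) and Ppia (4.02). With the median transcript Tbp (5.10) was again above Gapdh (4.10) and Ppia (3.06). Of the 100-base windows of the longest Gapdh transcript 18.2% recur in transcripts of 74 other genes, and for Ppia 15.7% recur in 17. Rpl13, with 18.4% of windows in 6 other genes, had 3.96 per kilobase. For Tbp 14.3% of windows recur, all in 1 gene, Pdcd2, which overlaps it on the other strand. For Hprt and Polr2a the share was 0. Whether the counting of uniquely mapped reads lowered these levels was not tested. Among the members the largest such shares, 1505 of 3009 windows for Rarb, 45.5% for Nr2c2 and 27.6% for Nr2f6, came from genes that overlap them on the other strand, with 1 further pseudogene for Nr2c2.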
